A study of Mus musculus with 6 samples.

Results

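The transcripts examined here encode proteins that restrain or modulate NF-κB signalling, several of which are themselves induced by it. They are the IκB proteins, the ubiquitin-editing enzyme A20 and the A20-binding ABIN proteins. The list holds 10 of the 53278 genes in the table and was drawn up by name, as the classical IκB genes Nfkbia, Nfkbib and Nfkbie, the nuclear IκB genes Nfkbid, Nfkbiz and Bcl3, Tnfaip3 for A20, and Tnip1, Tnip2 and Tnip3 for the ABINs. RNA was sequenced from type-2 innate lymphoid cells (ILC2s) sorted from the visceral adipose tissue of C57BL/6 mice aged 8 weeks, all of which had received 3 intraperitoneal injections of 1 µg of recombinant mouse IL-33, the cytokine that activates ILC2s through ST2. The cells were sorted as lineage-negative and positive for CD45, ST2 and CD117, and every culture contained IL-2 and IL-7 at 10 ng/mL each. One group (n = 3 libraries) received DTA-1, an agonistic antibody to the costimulatory receptor GITR, at 5 µg/mL and the other (n = 3) an isotype control, for 48 h by the labels and the methods. A shorter time stands elsewhere in the study's text. The sample titles call the control libraries isotype, whereas their descriptions read PBS-GITR. Nothing says whether the libraries came from separate animals, pooled animals or separate cultures.

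In resting cells, classical IκB proteins hold NF-κB dimers in the cytoplasm until the IκB kinase complex marks them for destruction. The freed dimers enter the nucleus and induce, among other genes, those of IκBα, IκBε and A20, so that the signal limits itself. GITR belongs to the TNF receptor family, whose members signal through TRAF adaptors to this pathway. Nuclear IκB proteins bind p50 or p52 on DNA and can either assist or restrain transcription, and A20 and the ABINs act upstream, on ubiquitin chains that assemble the kinase complexes.

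Total counts were 34557215 to 35131329 in the isotype control libraries and 30569351 to 32492849 in the DTA-1 libraries. All 11 ILC2 markers were detected, with summed normalized counts of 13120 to 13830 with isotype control and 14070 to 18750 with DTA-1. The higher sums came mainly from Il5, at 5063 to 5493 normalized counts with isotype control and 5627, 9695 and 8899 with DTA-1 (replicates 1, 2 and 3). Gata3 stood at 1688 to 1716 against 1678, 1525 and 1607, and Il1rl1 at 1096 to 1277 against 1286, 1022 and 1022. Kit stood at 98.8 to 129 against 128, 75.8 and 80.8. These markers were lower in DTA-1 replicates 2 and 3, while Il2ra, Id2, Areg and Il13 were higher there. Il2ra stood at 1952 to 2240 against 2243, 2741 and 2810, and Id2 at 1686 to 1846 against 1765, 2134 and 1995. Il7r stayed within the isotype control range in these libraries, and Rora and Klrg1 left it in DTA-1 replicate 3 only. The library labelled DTA-1 replicate 1 stood apart from its group. Its chi-square per degree of freedom over genes was 27.1 and 28.2 against DTA-1 replicates 2 and 3, and 9.64 to 11.3 against the isotype control libraries. Pairs of isotype control libraries gave 11.4 to 17.0, and DTA-1 replicates 2 and 3 gave 11.4 between them. By this measure DTA-1 replicate 1 was no further from the controls than the controls were from each other. Whether its label is right was not tested. The test of each member is therefore given with this library and without it. Leaving it out was decided with the values known, which limits what the smaller comparison can show.

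In DTA-1 replicates 2 and 3, 8 of 10 members stood above every isotype control library, as did 15.4% of all genes tested without DTA-1 replicate 1. Transcripts of IκBα, IκBε, A20, ABIN1 and ABIN3 were at 1.55 to 9.21 times the isotype control mean in these libraries, and the remaining members at 0.835 to 1.355 times, with Nfkbiz below every isotype control library. In the library labelled DTA-1 replicate 1, 7 of 10 members lay within the isotype control range, which 54.1% of all tested genes did. With all 6 libraries 0 of 10 members passed an adjusted p under 0.05 with at least 1.5-fold change in edgeR's quasi-likelihood test, as 0.0% of the 14361 genes tested did. Without DTA-1 replicate 1, Nfkbia, Nfkbie, Tnfaip3, Tnip1 and Tnip3 were called higher (5 of 10 members, against 0.583% of 14911 genes called higher) and 0 lower (0.161%).

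Promoter windows of 250 bases before and 50 bases after a transcript start were read from RefSeq for build GRCm38.p6 and matched by symbol for 9 of 10 members, Nfkbiz being the exception. NF-κB dimers bind κB sites, and the letters searched were the κB consensus: GGG, a purine, any base, A or T, a pair of pyrimidines and CC, on either strand. The consensus was in a window of 7 of these 9 members and in 4.51% of 32851 windows in the whole table (5.14% of 27025 genes). The looser pattern of GGG and CC separated by 5 bases, of which every consensus match is also a match, was in windows of 7 of 9 members and of 53.5% of genes. The windows of the members called higher without DTA-1 replicate 1 are shown with the consensus matches in capitals, followed by that of Nfkbib, which has none. They lie at chr12:55492598-55492897 on the minus strand (Nfkbia), chr17:45555450-45555749 on the plus strand (Nfkbie), chr10:19015361-19015660 on the minus strand (Tnfaip3, window 2 of 2 in the table), chr11:54962891-54963190 on the minus strand (Tnip1), chr6:65590148-65590447 on the plus strand (Tnip3) and chr7:28766595-28766894 on the minus strand (Nfkbib). The Tnip3 and Nfkbib windows lie wholly inside the span that the count table gives each gene, and the Tnfaip3 window almost wholly. Each sequence reads 5′ to 3′ along its gene.
Nfkbia: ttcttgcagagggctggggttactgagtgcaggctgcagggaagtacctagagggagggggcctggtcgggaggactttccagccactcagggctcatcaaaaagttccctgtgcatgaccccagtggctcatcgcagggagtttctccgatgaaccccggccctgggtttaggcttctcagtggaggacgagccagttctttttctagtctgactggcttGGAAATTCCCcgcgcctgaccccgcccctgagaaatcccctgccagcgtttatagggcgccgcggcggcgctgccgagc
Nfkbie: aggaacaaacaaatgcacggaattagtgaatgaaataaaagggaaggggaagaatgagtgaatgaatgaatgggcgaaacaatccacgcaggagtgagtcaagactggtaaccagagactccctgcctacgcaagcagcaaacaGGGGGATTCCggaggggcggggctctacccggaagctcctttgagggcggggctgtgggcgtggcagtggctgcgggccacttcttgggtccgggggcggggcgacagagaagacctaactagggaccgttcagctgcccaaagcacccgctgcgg
Tnfaip3: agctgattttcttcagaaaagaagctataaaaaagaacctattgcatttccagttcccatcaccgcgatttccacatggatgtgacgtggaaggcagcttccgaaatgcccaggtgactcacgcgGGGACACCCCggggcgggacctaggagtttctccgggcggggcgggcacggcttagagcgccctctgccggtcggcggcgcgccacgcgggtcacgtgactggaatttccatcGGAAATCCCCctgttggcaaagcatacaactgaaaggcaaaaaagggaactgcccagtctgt
Tnip1: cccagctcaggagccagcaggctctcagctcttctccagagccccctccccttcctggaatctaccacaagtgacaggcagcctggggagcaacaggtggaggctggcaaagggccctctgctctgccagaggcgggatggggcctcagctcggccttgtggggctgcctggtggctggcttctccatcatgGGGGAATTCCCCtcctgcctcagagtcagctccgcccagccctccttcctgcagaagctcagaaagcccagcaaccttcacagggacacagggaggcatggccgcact
Tnip3: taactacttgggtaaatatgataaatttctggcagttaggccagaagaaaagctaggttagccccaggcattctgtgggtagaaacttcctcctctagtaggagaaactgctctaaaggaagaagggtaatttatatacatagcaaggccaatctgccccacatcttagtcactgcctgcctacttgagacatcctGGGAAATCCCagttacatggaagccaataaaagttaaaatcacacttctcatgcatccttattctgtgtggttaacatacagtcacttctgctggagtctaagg
Nfkbib: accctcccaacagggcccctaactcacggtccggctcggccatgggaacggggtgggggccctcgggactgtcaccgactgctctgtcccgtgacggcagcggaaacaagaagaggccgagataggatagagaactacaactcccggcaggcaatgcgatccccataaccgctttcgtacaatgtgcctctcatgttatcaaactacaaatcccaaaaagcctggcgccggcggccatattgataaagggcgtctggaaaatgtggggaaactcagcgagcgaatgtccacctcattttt

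**Figure D1:**
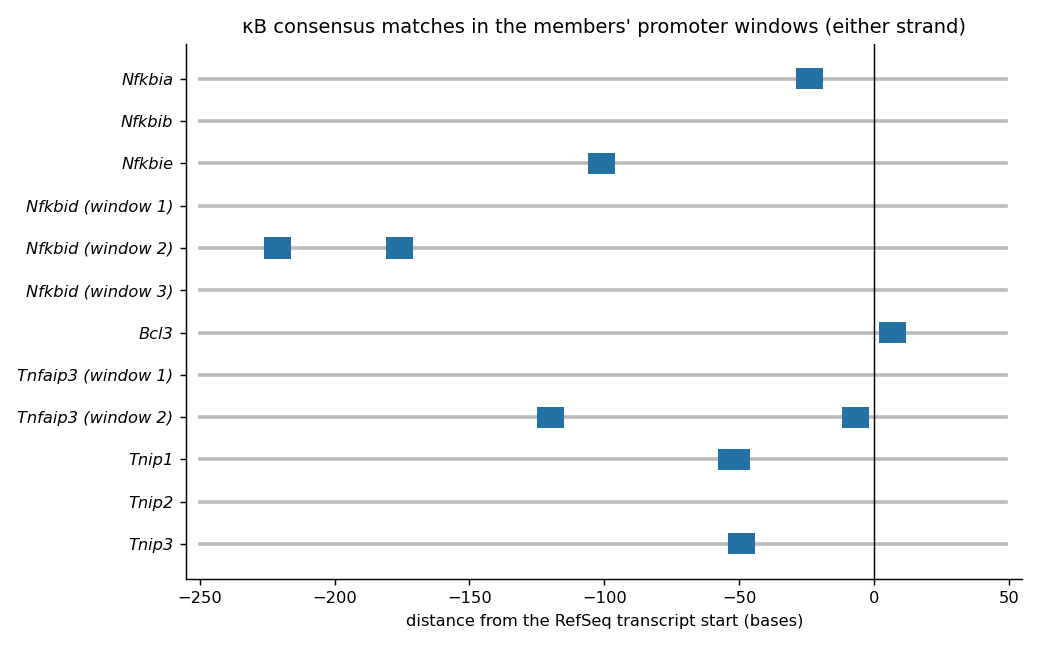
Position of κB consensus matches (blue, either strand, to scale) in each promoter window (grey line) against the distance from the RefSeq transcript start in bases. Windows of 7 members hold a match and those of Nfkbib and Tnip2 hold none, while Nfkbiz has no window in the reference table.

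The Nfkbia match ran from 29 to 20 bases before the start site, and that of Nfkbie from 106 to 97 bases before it. Tnfaip3 had a match from 125 to 116 and another from 12 to 3 bases before its start. In Tnip1 overlapping matches covered the bases from 58 to 47 before the start. In Tnip3 the bases from 54 to 45 before the start matched the consensus on both strands. The consensus was also present in windows of Nfkbid (from 226 to 217 and from 181 to 172 bases before the start of window 2) and of Bcl3 (from 2 to 11 bases after the start), and neither of these members was called. A match of letters was the measurement here, and binding was not measured.

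Nfkbia (ENSMUSG00000021025, chr12:55489410-55492647, minus strand, mm10) encodes IκBα, the inhibitor that NF-κB resynthesizes most directly. Its normalized counts, that is CPM values (counts scaled by library size) with TMM factors, were 102, 88.5 and 84.4 with isotype control (replicates 1, 2 and 3) and 87.3, 214.5 and 202 with DTA-1 (replicates 1, 2 and 3). DTA-1 replicate 1 sat among the isotype control libraries while the other DTA-1 libraries stood at 2.34 and 2.21 times the isotype control mean, so the groups overlapped. The means were 91.5 ± 8.98 and 168 ± 70.1 (SD, n = 3). On the log2 scale the change was 0.88 (95% confidence interval 0.10 to 1.65, edgeR adjusted p = 0.657) with all libraries and 1.19 (0.99 to 1.38, edgeR adjusted p = 0.000115) without DTA-1 replicate 1. Of all tested genes, 1.99% and 1.82% had a larger log2 fold change in these respective fits.

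Nfkbie (ENSMUSG00000023947, chr17:45555716-45563169, plus strand) encodes IκBε, a second inducible inhibitor of dimers that contain RelA or c-Rel. Its normalized counts were 32.8, 27.8 and 30.02 with isotype control and 30.6, 52.3 and 52.3 with DTA-1 (replicates 1, 2 and 3). The pattern was that of Nfkbia at smaller size, with DTA-1 replicate 1 again inside the control range. The log2 fold change was 0.58 (SE 0.18, edgeR adjusted p = 0.627) and became 0.79 (SE 0.10, edgeR adjusted p = 0.0057) without DTA-1 replicate 1.

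Nfkbib (ENSMUSG00000030595, chr7:28758251-28767512, minus strand) encodes IκBβ, the classical inhibitor that is least tied to NF-κB induction. Its normalized counts were 82.1, 66.1 and 76.5 with isotype control and 75.4, 95.7 and 90.8 with DTA-1. Replicates 2 and 3 of DTA-1 were above the controls, by a smaller margin than for its relatives. The log2 fold change of 0.22 (SE 0.11) did not pass, at edgeR adjusted p = 0.709, nor did the 0.32 without DTA-1 replicate 1 (adjusted p = 0.178, 0.0433 by DESeq2 without that library, below 1.5-fold). Nfkbib overlaps 778 bases of Sirt2 on the opposite strand, which had 3818 to 4051 counts with isotype control and 3267 to 3329 with DTA-1, and whether strand was used in counting is not stated.

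**Figure D2:**
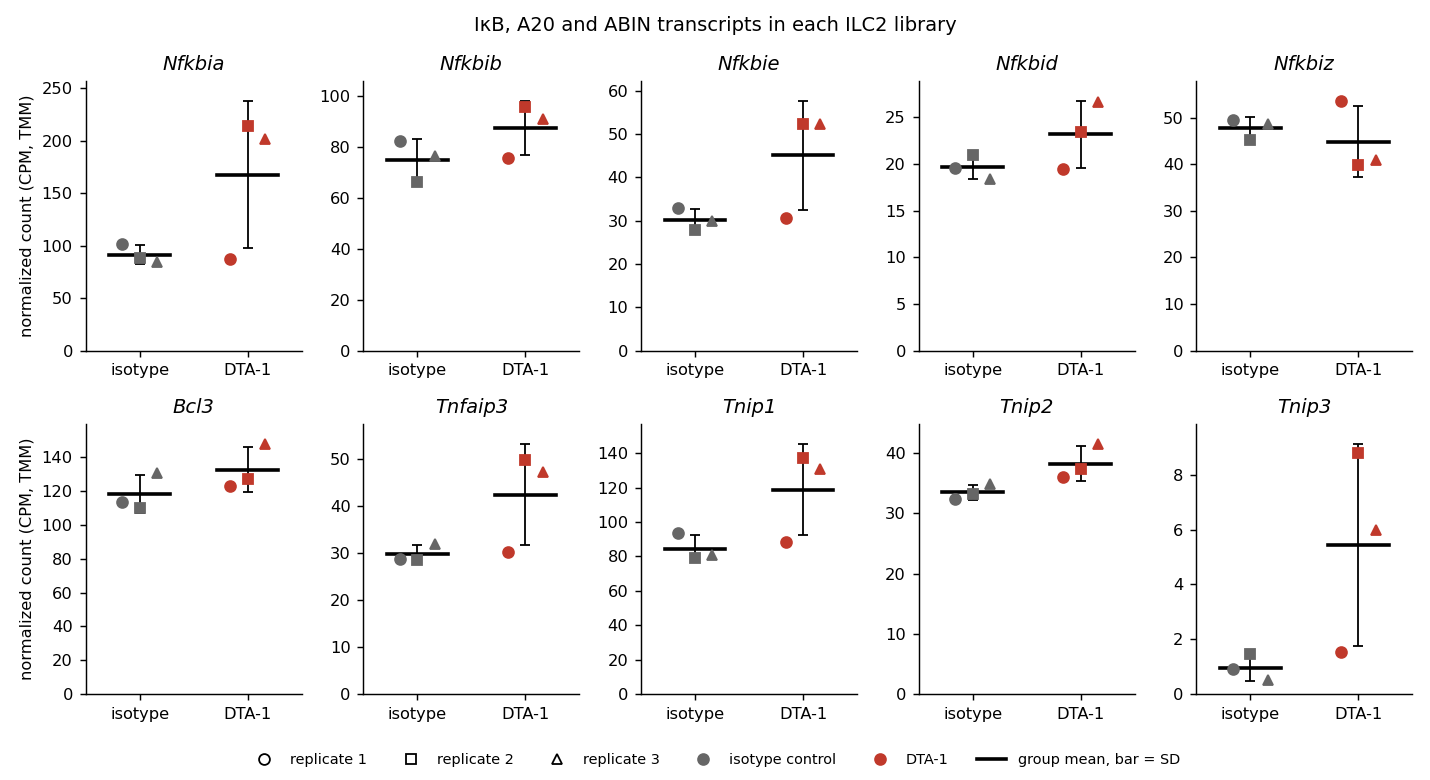
Normalized counts (CPM with TMM factors, axes from 0) of the 10 members in each library, with a marker shape for each replicate number, group means as thick lines and SD as bars (n = 3). The circle of DTA-1 replicate 1 lies with the isotype control libraries for 7 members, while the square and triangle of DTA-1 replicates 2 and 3 lie above them for 8 members, by the widest margins for Nfkbia and Tnip3, below them for Nfkbiz, and on both sides of the highest isotype control library for Bcl3.

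The nuclear IκB genes did not pass in either comparison. Nfkbiz (ENSMUSG00000035356, chr16:55811375-55838899, minus strand) encodes IκBζ, a cofactor for secondary response genes, and was the one member with a negative fold change. Its normalized counts were 49.5, 45.2 and 48.6 with isotype control and 53.6, 39.9 and 40.9 with DTA-1. DTA-1 replicate 1 was above all controls and the other DTA-1 libraries were below all controls. The log2 fold change was -0.09 (95% confidence interval -0.35 to 0.17, edgeR adjusted p = 0.902), and -0.24 (-0.45 to -0.03, edgeR adjusted p = 0.283) without DTA-1 replicate 1.

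Nfkbid (ENSMUSG00000036931, chr7:30421732-30428746, plus strand) encodes IκBNS, a nuclear partner of p50, and had normalized counts of 19.5, 20.98 and 18.4 with isotype control and 19.5, 23.4 and 26.6 with DTA-1. Its groups overlapped, through DTA-1 replicate 1, and the log2 fold change was 0.24 (SE 0.14, edgeR adjusted p = 0.738). Bcl3 (ENSMUSG00000053175, chr7:19808462-19822770, minus strand) encodes a coactivator of p50 and p52 homodimers. It had normalized counts of 114, 110.2 and 131 with isotype control and 123, 127 and 148 with DTA-1, with overlap of the groups whether or not DTA-1 replicate 1 was kept. Its log2 fold change was 0.17 (SE 0.09, edgeR adjusted p = 0.738), and 0.22 (edgeR adjusted p = 0.338) without DTA-1 replicate 1. Antisense genes on the opposite strand of Bcl3 had 1 to 27 counts per library.

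Tnfaip3 (ENSMUSG00000019850, chr10:19000910-19015657, minus strand) encodes A20, which removes activating ubiquitin chains from signalling adaptors. Its normalized counts were 28.7, 28.5 and 32.0 with isotype control and 30.2, 49.9 and 47.3 with DTA-1. The control libraries and DTA-1 replicate 1 lay close together, and DTA-1 replicates 2 and 3 stood at 1.68 and 1.59 times the isotype control mean. The log2 fold change was 0.51 (SE 0.17, edgeR adjusted p = 0.627) with all libraries and 0.71 (edgeR adjusted p = 0.00925) without DTA-1 replicate 1.

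The ABINs link A20 to its ubiquitinated substrates. Tnip1 (ENSMUSG00000020400, chr11:54910785-54962917, minus strand), which encodes ABIN1, had normalized counts of 93.5, 79.2 and 80.7 with isotype control and 88.3, 137 and 131 with DTA-1. DTA-1 replicate 1 was within the control range and the other DTA-1 libraries were at 1.62 and 1.55 times the control mean. The log2 fold change was 0.49 (SE 0.14, edgeR adjusted p = 0.627), and 0.66 (edgeR adjusted p = 0.00564) without DTA-1 replicate 1.

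Tnip2 (ENSMUSG00000059866, chr5:34496087-34513991, minus strand), which encodes ABIN2, had normalized counts of 32.4, 33.2 and 34.9 with isotype control and 36.0, 37.3 and 41.5 with DTA-1. Here all 3 DTA-1 libraries were above all 3 isotype control libraries, DTA-1 replicate 1 included. The difference was small, at 0.19 on the log2 scale (SE 0.10, edgeR adjusted p = 0.725), and 0.23 (edgeR adjusted p = 0.342) without DTA-1 replicate 1.

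Tnip3 (ENSMUSG00000044162, chr6:65525313-65634040, plus strand) encodes ABIN3, an ABIN induced by inflammatory signals, and had the fewest reads and the largest fold change of the members. It had 32, 51 and 18 counts with isotype control and 47, 275 and 191 counts with DTA-1. In normalized counts these were 0.904, 1.45 and 0.51 against 1.52, 8.81 and 5.99. Every DTA-1 library was above every control after scaling, but DTA-1 replicate 1 (47 counts, exact Poisson 95% interval 34.5 to 62.5, covering counting error only) could not be told from isotype control replicate 2 (51 counts, 38.0 to 67.1). The log2 fold change was 2.504 (95% confidence interval 1.23 to 3.78, edgeR adjusted p = 0.613) with all libraries, and 0.0766% of tested genes had a larger one. Without DTA-1 replicate 1 it was 2.95 (2.05 to 3.85, edgeR adjusted p = 0.00716). DESeq2's Wald test called Tnip3 with all 6 libraries as well (log2 fold change 2.51, DESeq2 adjusted p = 0.00545), the single member it called, against 0.0983% of the genes with a DESeq2 adjusted p.

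**Figure D3:**
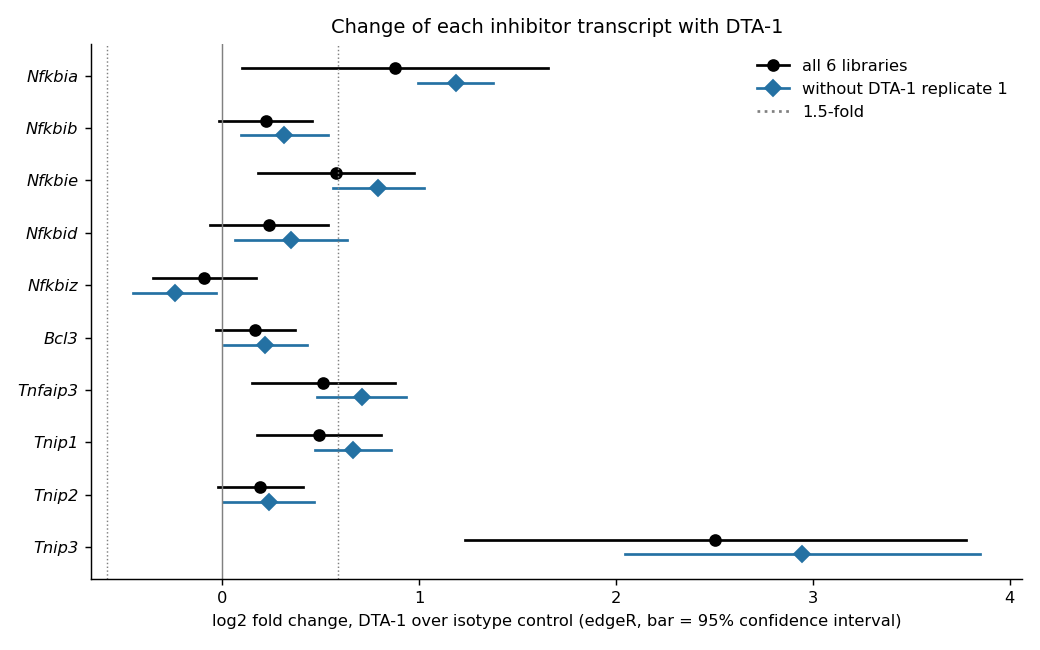
Log2 fold change of each member, DTA-1 over isotype control, from edgeR with 95% confidence intervals, for all 6 libraries (black circles) and without DTA-1 replicate 1 (blue diamonds), with dotted lines at 1.5-fold. The black intervals exclude 0 for Nfkbia, Nfkbie, Tnfaip3, Tnip1 and Tnip3 without adjustment for the genes tested, and leaving out DTA-1 replicate 1 moves all 10 estimates away from 0.

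Over the list, 9 of 10 log2 fold changes were above 0, as were 48.1% of those of all genes. The median was 0.36 for the members and -0.01 for all genes tested, and 0.51 and -0.02 without DTA-1 replicate 1. At an unadjusted p under 0.05, 5 members differed (7.22% of genes), and Nfkbia and Tnip3 also passed 1.5-fold (2 of 10, against 2.35%). With all 6 libraries limma called 0 members (0.0%), as did edgeR with the replicate number as a block (0.00696%), and the groups did not overlap for Tnip2 and Tnip3 (2 of 10, against 11.3%). Without DTA-1 replicate 1 they did not overlap for 9 of 10 members (31.2%), with 8 higher (15.4%) and Nfkbiz lower (15.9%). DESeq2 and limma without that library called the 5 genes that edgeR called, where 1.49% and 0.818% of all genes were called. These are bulk libraries, in which fewer cells of a type and less RNA per cell cannot be told apart.

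The sum of the mast cell and basophil markers was higher in the same libraries, although FcεRI was part of the lineage gate. Of these markers only Cpa3 and Cma1 exceeded every isotype control library in both. Tpsb2 in DTA-1 replicate 3 (4.96, against 4.38 to 6.05) and Fcer1a in DTA-1 replicate 2 (2.63, against 0.765 to 2.85) lay within the isotype control range. Mcpt8 was not higher in either library (0.192 and 0.690, against 0.656 to 1.16). All 5 of the list were detected, and their summed normalized counts were 16.2 to 21.7 with isotype control, 16.1 in DTA-1 replicate 1, and 44.6 and 32.4 in DTA-1 replicates 2 and 3, mainly Cpa3 and Cma1. Endothelial markers were at 18.4 to 24.4 with isotype control and at 18.3, 10.6 and 11.4 with DTA-1 (replicates 1, 2 and 3), but this sum was nearly all Pecam1, which leukocytes also express, with Cdh5 at 0 in every library and Kdr and Tek at 0 in the isotype control libraries. The part of mast cells and basophils in the results on the members was not tested. Macrophage and monocyte markers summed to 6.79 to 12.7 with isotype control and 9.09 to 11.9 with DTA-1 with C1qb at 0, and T cell markers to 51.7 to 67.3 and 60.6 to 63.2 with Cd8a at 0. The T cell sum was mainly Cd3g and Lck, and Cd3e did not exceed 3.72 in any library. Eosinophil markers summed to 5.79 to 7.74 with isotype control and 2.95 to 5.83 with DTA-1, nearly all of it Ccr3. Fibroblast markers did not exceed 8.33 in any library, neutrophil and mesothelial markers 1.41, and adipocyte markers 0.454.

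Levels of different genes were compared per kilobase of exon, taking the union of annotated exons. With isotype control Nfkbia was the most abundant member, at 56.8 ± 5.58 normalized counts per kilobase (SD, n = 3), followed by Bcl3 at 47.8, Nfkbib at 34.5 and Tnip1 at 23.9. Tnip2 was at 12.5, Nfkbie at 9.92, Nfkbiz at 9.52 and Nfkbid at 8.37. Tnfaip3 was lower, at 4.12 normalized counts per kilobase, and Tnip3 was lowest by a wide margin, at 0.0876. The isotype control libraries of Nfkbia and Bcl3 overlapped, as did those of Nfkbie and Nfkbiz, so these neighbours did not differ beyond their spread, while the other neighbours in the order did not overlap. With DTA-1 the order by group mean was the same except that Nfkbie stood above Tnip2 and Nfkbid above Nfkbiz. In DTA-1 replicates 2 and 3 Nfkbia reached 133 and 125.5 normalized counts per kilobase, where Bcl3 was at 51.5 and 59.7.

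**Figure D4:**
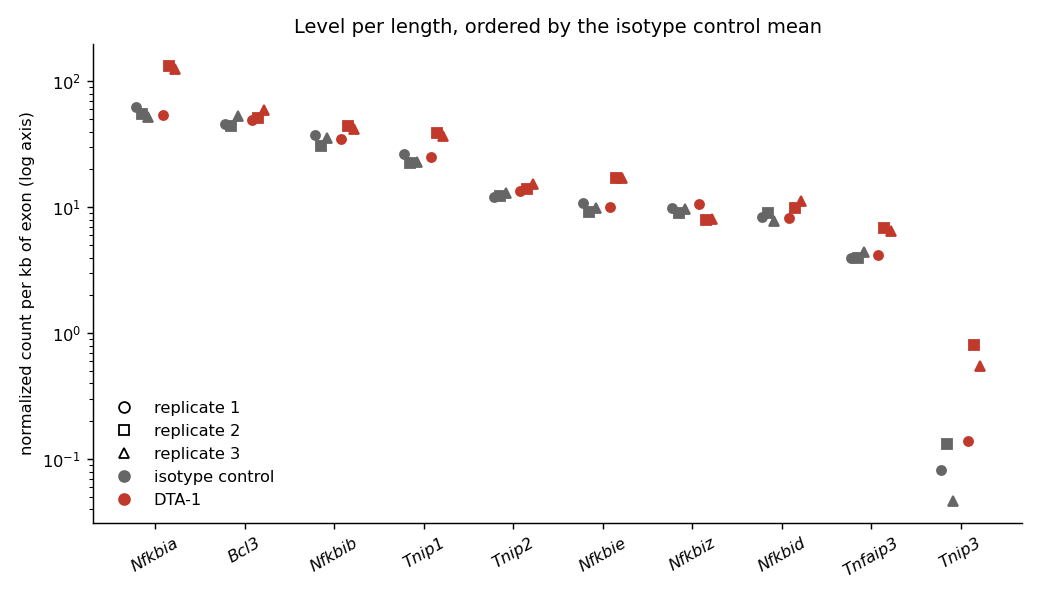
Normalized counts per kilobase of exon (log axis) of each member in every library, ordered by the isotype control mean, with a marker shape for each replicate number. Levels run from Nfkbia at 56.8 to Tnip3 at 0.0876 with isotype control, and Nfkbia and Tnip3 show the widest gap between DTA-1 replicates 2 and 3 and the other libraries.

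Because an inhibitor acts on the subunits it binds, the members were also set against the transcript of RelA, in levels per kilobase and as a description with no test. The ratio of Nfkbia to Rela was 1.04, 0.987 and 0.861 with isotype control and 0.923, 2.03 and 1.89 with DTA-1 (replicates 1, 2 and 3). The Rela transcript differed less between libraries, with normalized counts of 171 to 187 with isotype control and 181, 201 and 204 with DTA-1. DTA-1 replicates 2 and 3 exceeded every control for Rela as well (log2 fold change 0.16, edgeR adjusted p = 0.304, without DTA-1 replicate 1). These are ratios of transcripts only. The paper reports more p65 protein by cytometry with DTA-1 while its mRNA was not induced. The group mean ratio with DTA-1 was 1.68 times that with isotype control, and 2.04 times without DTA-1 replicate 1. The ratio of Nfkbib to Rela was 0.625, 0.547 and 0.58 with isotype control and 0.591, 0.674 and 0.629 with DTA-1, so that DTA-1 replicates 2 and 3 exceeded every control for Nfkbib too, by a narrow margin.

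Summed over the 3 classical IκB genes and over the 5 subunit genes, the inhibitor to subunit ratio was 0.851, 0.785 and 0.761 with isotype control and 0.782, 1.09 and 1.02 with DTA-1. This summed ratio differed by less between libraries than that of Nfkbia to Rela, and the summed subunit level was also higher in DTA-1 replicates 2 and 3 (178 and 180.2 normalized counts per kilobase) than in the other libraries (120.5 to 131). Nfkbia made up 53.7% to 58.1% of the classical IκB level with isotype control, 54.8% in DTA-1 replicate 1, and 68.5% and 68.0% in DTA-1 replicates 2 and 3.

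**Figure D5:**
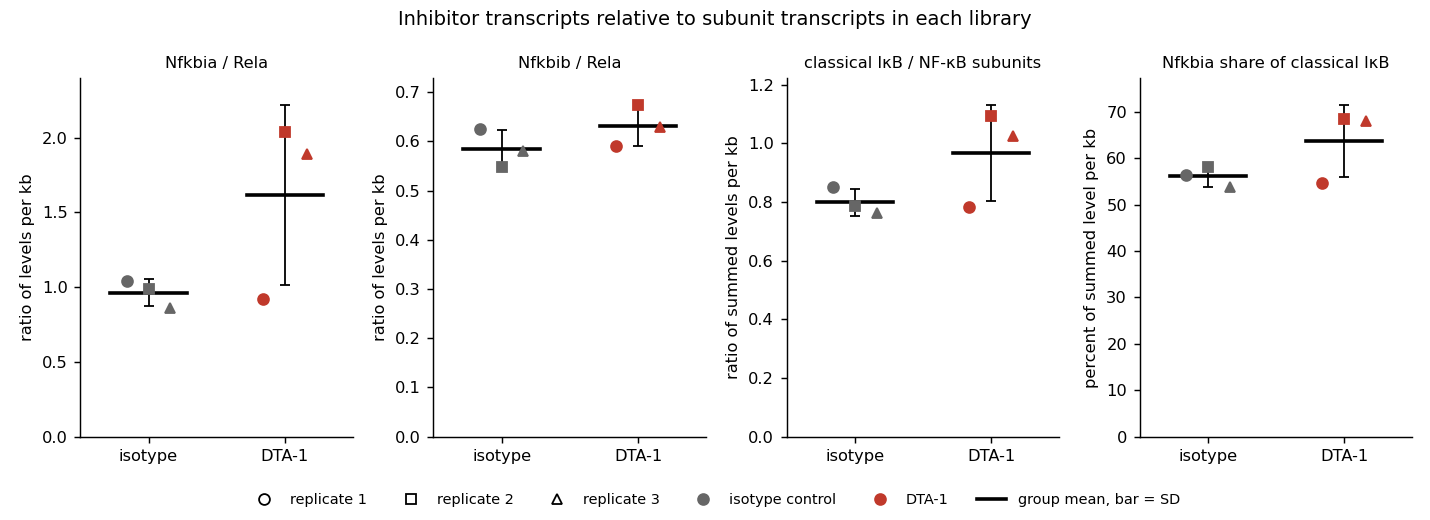
Ratios of levels per kilobase and the share of Nfkbia in the classical IκB sum, in each library (axes from 0), with group means as thick lines and SD as bars (n = 3). DTA-1 replicates 2 and 3 lie above the isotype control libraries in all 4 panels, by the widest margin for Nfkbia to Rela (2.03 and 1.89 against at most 1.04), and DTA-1 replicate 1 lies within the isotype control range.

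Of 32 other genes of the pathway, 31 were tested, Otud7a being near 0 counts. They had a median log2 fold change of 0.03, with 21 above 0 and 10 below (67.7% above 0, against 48.1% of all genes), and 0 were called with all libraries (0.0% of all genes). Without DTA-1 replicate 1, 2 of 31 were called higher and 0 lower, against 0.583% and 0.161% of all genes. Both encode subunits of the non-canonical arm: Nfkb2 (p100, itself an IκB-like inhibitor until it is processed to p52), at 103 to 115 normalized counts with isotype control against 108, 307 and 315 with DTA-1 (log2 fold change 1.13, edgeR adjusted p = 0.678, and 1.49, adjusted p = 1.35e-05, without DTA-1 replicate 1), and Relb, at 35.2 to 43.5 against 39.4, 85.1 and 85.6 (0.83, edgeR adjusted p = 0.627, and 1.11, adjusted p = 0.00061). Nfkb2 made up 18.6% to 19.6% of the summed subunit level with isotype control and in DTA-1 replicate 1, and 37.7% and 38.1% in DTA-1 replicates 2 and 3.

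Some genes of the list passed the adjusted p without DTA-1 replicate 1 but not 1.5-fold, and are named after their values were seen. Nfkb1, which encodes p105, another precursor with an IκB-like part, was lower at -0.54 on the log2 scale (edgeR adjusted p = 0.00162), and Traf3, an adaptor that keeps the non-canonical arm off, was higher at 0.55 (edgeR adjusted p = 0.0154). Genes of the A20 partners and ubiquitin ligases, among them Tax1bp1, Itch, Cyld, Otulin, Rnf31, Rbck1 and Sharpin, had 0 calls in either comparison. Of all genes, 0.0% were called with all libraries, and 0.583% higher and 0.161% lower without DTA-1 replicate 1. With shares this low, 0 calls in so short a list does not set these genes apart. Zc3h12a, which encodes the RNA-degrading enzyme Regnase-1, had 9.21 to 9.75 normalized counts with isotype control and 12.9, 12.5 and 12.8 with DTA-1, and this was 0.43 higher on the log2 scale without passing the test (edgeR adjusted p = 0.627). Tab1, an adaptor of the kinase TAK1, had 30.1 to 33.6 with isotype control and 24.3, 28.4 and 29.6 with DTA-1 (log2 fold change -0.24, edgeR adjusted p = 0.698). These 2 of 31 genes were the ones whose groups did not overlap with all libraries kept, against 11.3% of all genes.

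The genes whose pattern over the 6 libraries was most like that of a member were ranked by Pearson's r of log2 CPM among 8722 genes, as a description, since these points share group, depth and the library that stood apart. For Nfkbia the top 5 were Ell2, Rrad, Cmas, Tph1 and Stab1 (r from 0.996 to 0.999). Among members, Nfkbie ranked 25 (r = 0.99), Tnip1 ranked 41 (0.986) and Tnfaip3 ranked 153 (0.96), while Nfkbiz ranked 8367 (-0.87). For Tnfaip3 the top 5 were Stx11, Adora2b, Lgals3bp, Traf1 and Tpm3 (r from 0.994 to 0.996), with Nfkbie at rank 102, Nfkbia at 137 and Tnip1 at 215. Tnip3 was below the minimum mean of 10 normalized counts and was not ranked.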

How the data were processed

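RNA was sequenced from sorted ILC2s in 6 libraries, 3 cultured with DTA-1 and 3 with isotype control. The authors deposited a table of expected counts, which are unnormalized estimates of the reads of each gene, and 77.8% of its values were whole. The submitters' processing notes name bcl2fastq 2.17.1.14, STAR 2.5.3a, Partek and mm10, and the annotation release and strand setting are not given in the sources used here. Of 49612 symbols shared with GENCODE M21, 48184 had the same start.

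Counts were rounded to whole numbers, filtered with filterByExpr, scaled by TMM and tested over all genes with edgeR 4.0.16 in R 4.3.3 (robust quasi-likelihood F test, Benjamini-Hochberg adjustment). Genes were called at an adjusted p under 0.05 and at least 1.5-fold change. Standard errors were derived from each F statistic. DESeq2 1.42.0, limma 3.58.1 (log2 CPM, prior count of 2), other scalings and filters, a replicate block and leaving out each library were alternatives. The fits were also run on simulated data in which all DTA-1 libraries shared the same changes. A library standing apart from its group was not simulated. Plots were made with matplotlib 3.10.9 in Python 3.11.15. Nothing in the labels says that libraries of a group are separate cultures, so p-values measure the spread between these libraries, which may be technical. With 3 libraries against 3 an exact permutation test cannot pass the threshold and none was run.

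The 10 members, the 32 pathway genes and the marker lists were chosen with earlier results of these data known. Not every marker list is reported here. All members were named, as were pathway genes called in either comparison, Rela, and the 5 genes most like Nfkbia and most like Tnfaip3. Chi-square per degree of freedom between libraries was 9.64 to 37.9 over 15 pairs, so no pair agreed within sampling noise. Promoter sequences are those of RefSeq. Protein sequences were not analysed here.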

Additional observations from a re-analysis of the deposited data

How the results depend on the processing

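The members' calls rested on the library labelled DTA-1 replicate 1. Leaving out each library in turn gave 0 to 5 members called and 0 to 2 genes of the pathway list. The highest counts came without DTA-1 replicate 1, where 0.583% of all genes were called higher and 0.161% lower. Without any other library the counts were 0. The share of all genes called in those fits was not taken, so these 0 counts are not a result about the members. Without that library DESeq2 and limma also called 5 members and 2 pathway genes. With all libraries DESeq2 called 1 member, Tnip3 (log2 fold change 2.51), and an unadjusted p under 0.05 with 1.5-fold change took 2. No member changed direction under any of the 15 alternatives. These all refit the same libraries and keep DTA-1 replicate 2 or 3, so the constant direction is not independent support. The highest adjusted p over them (edgeR or DESeq2) was 0.9985 to 0.999 for each member.

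Leaving out 1 library at a time, the log2 fold change ranged from 0.67 to 1.19 for Nfkbia, 0.46 to 0.79 for Nfkbie, 0.39 to 0.71 for Tnfaip3, 0.38 to 0.66 for Tnip1 and 1.98 to 2.95 for Tnip3, and among these edgeR fits each passed only without DTA-1 replicate 1. Without that library DESeq2 and limma gave 1.19 and 1.19 for Nfkbia, 0.80 and 0.79 for Nfkbie, 0.71 and 0.71 for Tnfaip3, 0.67 and 0.67 for Tnip1, and 2.96 and 2.96 for Tnip3. The ranges were 0.14 to 0.32 for Nfkbib, 0.13 to 0.35 for Nfkbid, -0.24 to -0.01 for Nfkbiz, 0.08 to 0.24 for Bcl3 and 0.13 to 0.23 for Tnip2. The ratio of Nfkbia to Rela between group means, an alternative added after seeing the data, ranged from 1.46 to 2.04.

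By coding length 8 of 10 members kept their rank, with Tnip2 and Nfkbie exchanged. By Spearman's rho, which ties many genes over 6 libraries, 1 of the 5 genes most like Nfkbia and 2 of the 5 most like Tnfaip3 stayed in the top 5.

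Nothing says whether the replicate numbers of the titles pair the libraries. Deviations of same-numbered libraries correlated at -0.00690 to 0.0152 over genes, and those of other-numbered libraries at -0.0145 to 0.0161. With 3 libraries in each group, and DTA-1 replicate 1 apart from its group, these values cannot settle whether pairs exist. With the replicate number as a block 0 members were called (0.00696% of genes), and the log2 fold changes of Nfkbia and Tnip3 were 0.79 (edgeR adjusted p = 0.679) and 2.32 (edgeR adjusted p = 0.605).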
